A study of Mus musculus with 23 samples.

Results

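Hmga2-high libraries are those with less than 10 CPM (read counts scaled to the total of a library) of Glycam1 and at least 10 CPM of Hmga2, and they made up 3 of the 23 libraries of mammary fat pad taken beside an orthotopic breast tumor. They are obese IgG2a 2, 4 and 5, where the number is a replicate given in the order of deposit. Another 9 libraries also had Glycam1 under 10 CPM but held less Hmga2. They are obese anti-PD-1 1, 2, 5, 6, 7 and 8, lean anti-PD-1 2 and 4, and lean IgG2a 5, and they are called the other 9 libraries below. The remaining 11 libraries had Glycam1 at or above 10 CPM. Glycam1 encodes a mucin of lymph node venules, and its level left a wide gap, with a highest value of 0.498 CPM among the 12 libraries kept and a lowest value of 117 CPM among the 11 set aside.

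All mice were female C57BL/6J that received 250000 E0771-luciferase mouse mammary carcinoma cells in 25% matrigel in mammary gland 4. Obese mice ate a diet with 60% of its energy from fat between 8 and 26 weeks of age, and lean mice ate one with 10% according to the labels. Injections of 200 µg began on day 3, were repeated every 3 days and ended with sacrifice on day 21. They held either an antibody against PD-1, a receptor that restrains activated T cells, or an isotype-matched IgG2a. There were 8 obese mice on anti-PD-1 and 5 on IgG2a, and 5 lean mice on either antibody, so the Hmga2-high libraries share 1 diet and 1 antibody and none of the other 9 libraries has that combination. Diet and antibody therefore cannot be told apart from the level of Hmga2 between these sets, and the tissue is a whole fat pad, in which fewer cells of a type and less RNA per cell cannot be told apart.

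Hmga2 encodes an architectural chromatin protein that bends AT-rich DNA. It is abundant in embryos, is repressed by let-7 microRNAs through sites in its 3′ untranslated region (UTR), and returns in many tumors. Fosl1 encodes Fra-1, a Fos-family subunit of the transcription factor AP-1, and Mmp13 encodes a collagenase that cuts fibrillar collagen and is a well-known AP-1 target. The let-7 members are shown because they share 1 seed (bases 2 to 8, in capitals), as RefSeq lists them for GRCm38.p6.
let-7a-5p: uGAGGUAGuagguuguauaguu
let-7b-5p: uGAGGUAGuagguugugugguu
let-7d-5p: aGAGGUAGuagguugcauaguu
miR-98-5p: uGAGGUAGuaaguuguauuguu

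The seed GAGGUAG is common to all 11 mature entries of the family in that table, and its match in a transcript reads CTACCTC. Transcript Hmga2-201 held 4 such matches in its 3′ UTR, bases 734 to 3710 of the transcript (GENCODE, GRCm38). The 4 sites are printed with the match in capitals, all on the minus strand of chromosome 10, because Hmga2 defines the libraries described here.
Hmga2 site at chr10:120364223-120364246: gccgacattcaatttCTACCTCag
Hmga2 site at chr10:120362986-120363009: ccccactcctcaataCTACCTCtg
Hmga2 site at chr10:120362548-120362571: ctgatttgcaaggaaCTACCTCca
Hmga2 site at chr10:120361690-120361713: aatcaaaacacactaCTACCTCtt

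Trim71, another classical let-7 target, also held 4 matches in its 3′ UTR, while Arid3a held 2 and Hmga1, Igf2bp2 and Igf2bp3 held 1 each. Fosl1 and Mmp13 held none. Matches are letters only and say nothing of binding, since microRNAs were not measured. A let-7 seed match was present in the 3′ UTR of 11.8% of the 634 genes higher in the Hmga2-high libraries that had a UTR, against 10.1% of all 15392 genes with one.

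Hmga2 (ENSMUSG00000056758, chromosome 10, 120361275 to 120476469, GRCm38) stood at 103 CPM in obese IgG2a 2, 20.2 CPM in obese IgG2a 4 and 185 CPM in obese IgG2a 5. In the other 9 libraries it ranged from 0.0776 to 6.49 CPM with a median of 0.610 CPM. These values chose the libraries and carry no test. The library just inside the limit was obese IgG2a 4 and the library just outside it was obese anti-PD-1 8, at 6.49 CPM. The remaining obese IgG2a libraries, which held Glycam1, stood at 0.542 CPM (obese IgG2a 1) and 0.348 CPM (obese IgG2a 3). The fitted difference between the Hmga2-high and the other 9 libraries was a log2 fold change of 6.20 (SE 0.908, n = 3 and 9), and 5.47 (SE 0.947) without obese IgG2a 5.

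Hmga2-201 was the main transcript in all 23 libraries, with at least 97.4% of the Hmga2 counts outside the Hmga2-high ones. It carried 96.0%, 96.8% and 97.1% of the estimated Hmga2 counts in obese IgG2a 2, 4 and 5. Transcript Hmga2-203 carried 3.20% in obese IgG2a 2, 1.61% in obese IgG2a 5 and none in obese IgG2a 4. Hmga2-202, which keeps an intron, carried 0.774%, 3.18% and 1.30% in the same order of libraries. The shares of the minor transcripts thus varied between these 3 libraries while the main one hardly did. Obese anti-PD-1 8 read only Hmga2-201, with 384 counts, and so did most other libraries outside the Hmga2-high ones.

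Fosl1 (chromosome 19, 5447547 to 5455946) followed the same order, with 113 CPM in obese IgG2a 2, 18.3 CPM in obese IgG2a 4 and 132 CPM in obese IgG2a 5. The other 9 libraries lay between 0.595 and 8.75 CPM with a median of 1.71 CPM, and the sets did not overlap. Its log2 fold change was 4.95 (SE 0.658), and 4.54 without obese IgG2a 5. Mmp13 (chromosome 9, 7272514 to 7283331) was at 29.1, 7.12 and 33.2 CPM in obese IgG2a 2, 4 and 5, against 0.0549 to 4.56 CPM (median 1.12 CPM) elsewhere among the 12 libraries, a log2 fold change of 4.09 (SE 0.729) and 3.75 without obese IgG2a 5. The highest of the other 9 libraries was obese anti-PD-1 8 for all 3 markers. Fosl1 overlaps Ccdc85b, and Hmga2 overlaps 1700006J14Rik and 9230105E05Rik, on the opposite strand, and the libraries are non-directional, so reads of these partners could not be told apart.

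**Figure D1:**
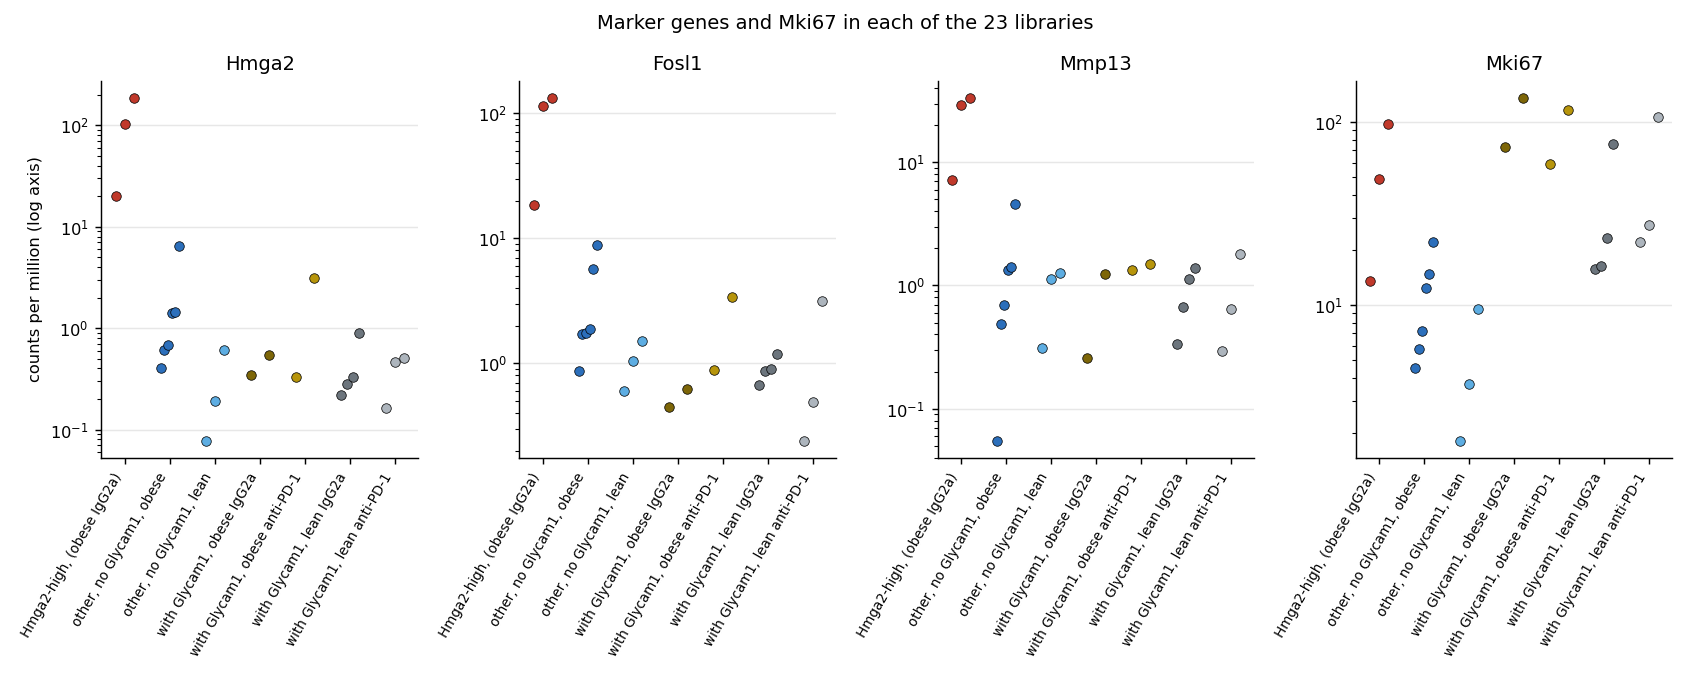
CPM of Hmga2, Fosl1, Mmp13 and Mki67 on a log axis, 1 point per library, for the 3 Hmga2-high libraries, the other 9 libraries divided by diet, and the 11 libraries with Glycam1 divided by group. The 3 Hmga2-high libraries lie above all others for Hmga2, Fosl1 and Mmp13, whereas Mki67 reaches 135 CPM in a library with Glycam1.

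The promoter of Mmp13 holds the AP-1 motif, and so does that of Plaur, the urokinase receptor described below. They are shown, 5′ to 3′ with the motif in capitals, because Fosl1 is an AP-1 subunit and they were the promoters with a match among those of the higher genes looked at singly. The motif searched was TGANTCA, which reads the same on both strands, in the 250 bases before and 50 after the RefSeq start (GRCm38.p6). It begins 35 bases before the start in Mmp13 and 69 bases before it in Plaur, and both are on the plus strand.
Mmp13 promoter at chr9:7272264-7272563: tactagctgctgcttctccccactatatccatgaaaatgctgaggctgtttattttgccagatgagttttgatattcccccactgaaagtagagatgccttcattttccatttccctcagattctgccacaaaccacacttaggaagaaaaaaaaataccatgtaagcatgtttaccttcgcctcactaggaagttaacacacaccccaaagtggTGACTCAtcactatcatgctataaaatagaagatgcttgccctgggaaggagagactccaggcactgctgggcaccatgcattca
Plaur promoter at chr7:24462233-24462532: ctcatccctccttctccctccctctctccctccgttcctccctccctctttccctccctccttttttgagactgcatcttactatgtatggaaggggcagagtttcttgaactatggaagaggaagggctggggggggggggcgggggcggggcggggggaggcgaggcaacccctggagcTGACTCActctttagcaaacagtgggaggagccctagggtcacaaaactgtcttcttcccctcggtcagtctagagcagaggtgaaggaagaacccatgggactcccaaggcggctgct

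The motif was present in 6.90% of the 522 promoters of higher genes that the table holds and in 7.02% of the 12890 promoters of all genes tested, so its share was near the background. The promoters of Hmga2, Hmga1, Slc16a3, Spp1, Ptgs2 and Il1rap, the others looked at singly, held no match in this window.

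Among 19067 genes tested between the 3 Hmga2-high and the other 9 libraries, 704 (3.69%) were higher in every Hmga2-high library than in every other library by a fitted factor of at least 2. Another 45 (0.236%) were lower by the same rule. Genes meeting it are called separated here, and this is a description, since the libraries were chosen by Hmga2. Without obese IgG2a 5 the counts were 628 (3.15%) higher and 51 (0.256%) lower, of which 572 and 30 were shared with the full comparison. Without obese IgG2a 4, the lowest of the 3 in Hmga2, 2081 were higher and 271 lower. The lower genes numbered 94 without obese IgG2a 2, and 87 when obese anti-PD-1 8 was left out. A set of fewer libraries meets the rule more easily by construction. Against the 6 obese anti-PD-1 libraries alone, which share the diet, 782 (4.2%) were higher and 119 (0.64%) lower, and 639 and 23 of the separated genes were shared. Without obese IgG2a 5 these became 744 (3.83%) and 135 (0.694%). Of the 704 higher genes 636 were protein-coding, 74 were predicted genes with Gm or Rik names, and 167 were under 1 CPM in all of the other 9 libraries.

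**Figure D2:**
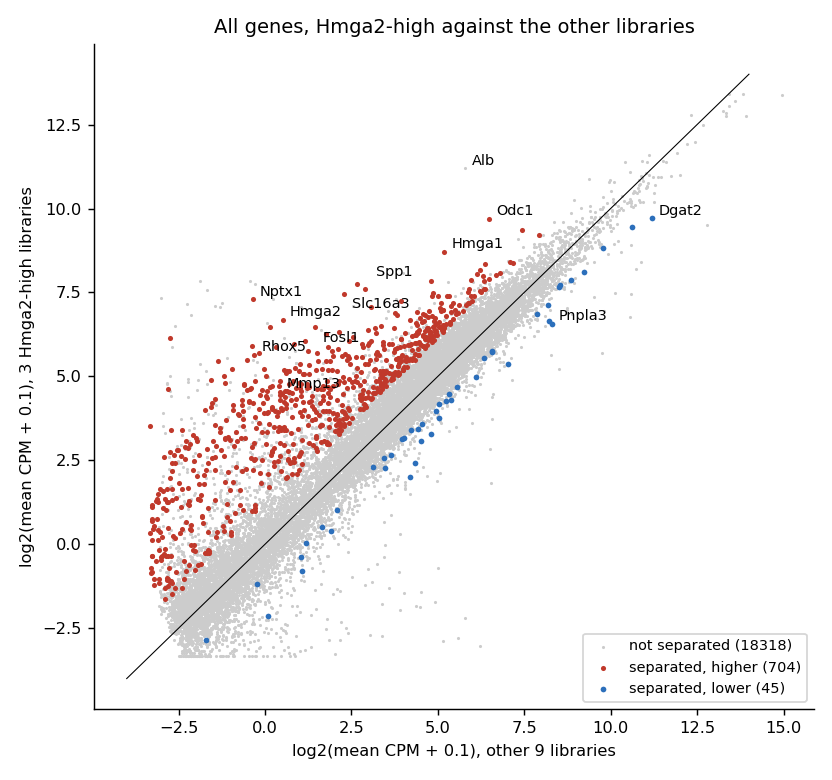
Mean CPM of every tested gene on a log2 scale after adding 0.1, with the other 9 libraries on the x axis and the 3 Hmga2-high libraries on the y axis. Red points are the 704 separated higher genes, blue points the 45 separated lower genes, and the line marks equal levels.

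The 15 higher genes of largest fold change without obese IgG2a 5, leaving aside predicted genes with Gm or Rik names, are known from various tissues. Nptx1, a neuronal pentraxin with the largest fold change among them, was at 135, 18.5 and 317 CPM in obese IgG2a 2, 4 and 5 against 0 to 4.27 CPM (median 0.224 CPM) in the other 9 libraries, a log2 fold change of 7.78 (SE 1.16) and 6.76 without obese IgG2a 5. Trim71, a ubiquitin ligase of early embryos, was at 6.62, 2.31 and 22.3 CPM against at most 0.439 CPM. The 15 genes were chosen among the separated ones, so their values could not overlap between the sets. Esx1, an X-linked homeobox gene of placenta and testis, was at 28, 3.53 and 19 CPM against at most 1.77 CPM. Rhox5, the founding gene of the Rhox homeobox cluster on the X chromosome, was at 87.4, 7.76 and 55.2 CPM against 0 to 4.64 CPM. Tex19.1, which represses retrotransposons in germ cells and placenta, was at 40.0, 3.97 and 38.6 CPM against at most 2.45 CPM. For Esx1, Rhox5 and Tex19.1 obese IgG2a 2 was the highest library, and obese IgG2a 4 the lowest of the 3.

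Transcription factors of the developing nervous system and gonad were among the named genes. Zic2, a zinc finger factor of the forebrain, was at 7.60, 1.06 and 11.4 CPM against at most 0.388 CPM. Dlx2, a homeobox gene of the forebrain and jaw, was at 12.4, 2.35 and 13.3 CPM against at most 0.591 CPM. Nr5a1, the steroidogenic factor of adrenal and gonad, was at 9.48, 1.96 and 13.7 CPM against at most 0.676 CPM. All 3 kept the order of libraries seen for Hmga2.

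Others of the 15 genes have other roles. Lrp2, the endocytic receptor megalin, was at 11.2, 1.72 and 18.7 CPM against at most 0.262 CPM. Acsl6, an acyl-CoA synthetase of brain, was at 40.1, 6.74 and 63.5 CPM against at most 2.35 CPM. Lack of overlap between the sets was a condition of the choice for these genes too. Ptprn, a protein of secretory granules, was at 90.1, 19.3 and 157 CPM against at most 7.08 CPM. Crmp1, a cytosolic protein of growing axons, was at 77.5, 10.2 and 92.3 CPM against at most 3.16 CPM. Nxf3, an X-linked relative of the nuclear RNA export factor, was at 23.1, 4.89 and 32.2 CPM against at most 1.57 CPM. Raet1d, a ligand of the NKG2D receptor of natural killer cells, completed the list at 20.9, 3.91 and 30.5 CPM against at most 0.828 CPM. Log2 fold changes of the 15 genes ran from 6.00 (Dlx2) to 7.78 (Nptx1). All 15 were also separated from the 6 obese anti-PD-1 libraries. Those are part of the other 9 libraries, so only the factor of 2 could fail there. Raet1d overlaps Raet1e on the same strand and Tex19.1 has a near copy in Tex19.2, so their counts are uncertain where reads fit either gene. Trim71, Crmp1, Acsl6, Ptprn and Nr5a1 each overlap a gene on the opposite strand, as do Pygl, Kcnk3, H1fx and Adap1 among the named lower genes, and reads of such partners could not be told apart.

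Members of the same families were separated together in some cases. Of 34 Rhox genes listed, 4 passed the filter on low counts and 3 were higher (Rhox2d, Rhox2g and Rhox5). Of 9 Pax genes, 4 passed and all 4 were higher, Pax2, Pax5, Pax6 and Pax9. Pax5 reached at most 24.4 CPM in the Hmga2-high libraries, below its 28.8 to 348 CPM in the 11 libraries with Glycam1. Members that pass mainly through the libraries where they are high had to differ, so these counts are not support for anything beyond the values. Pax9 was at 8.31, 1.90 and 13.3 CPM against at most 0.490 CPM. Of 5 Dlx genes that passed, 3 were higher, and of 7 granzyme genes 4 were higher (Gzmc, Gzmd, Gzme and Gzmf). Among 23 keratin genes that passed only Krt20 was higher, and among 16 matrix metalloproteinase genes only Mmp13. Families were chosen after the values were seen, and 3.69% of all genes tested were higher.

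**Figure D3:**
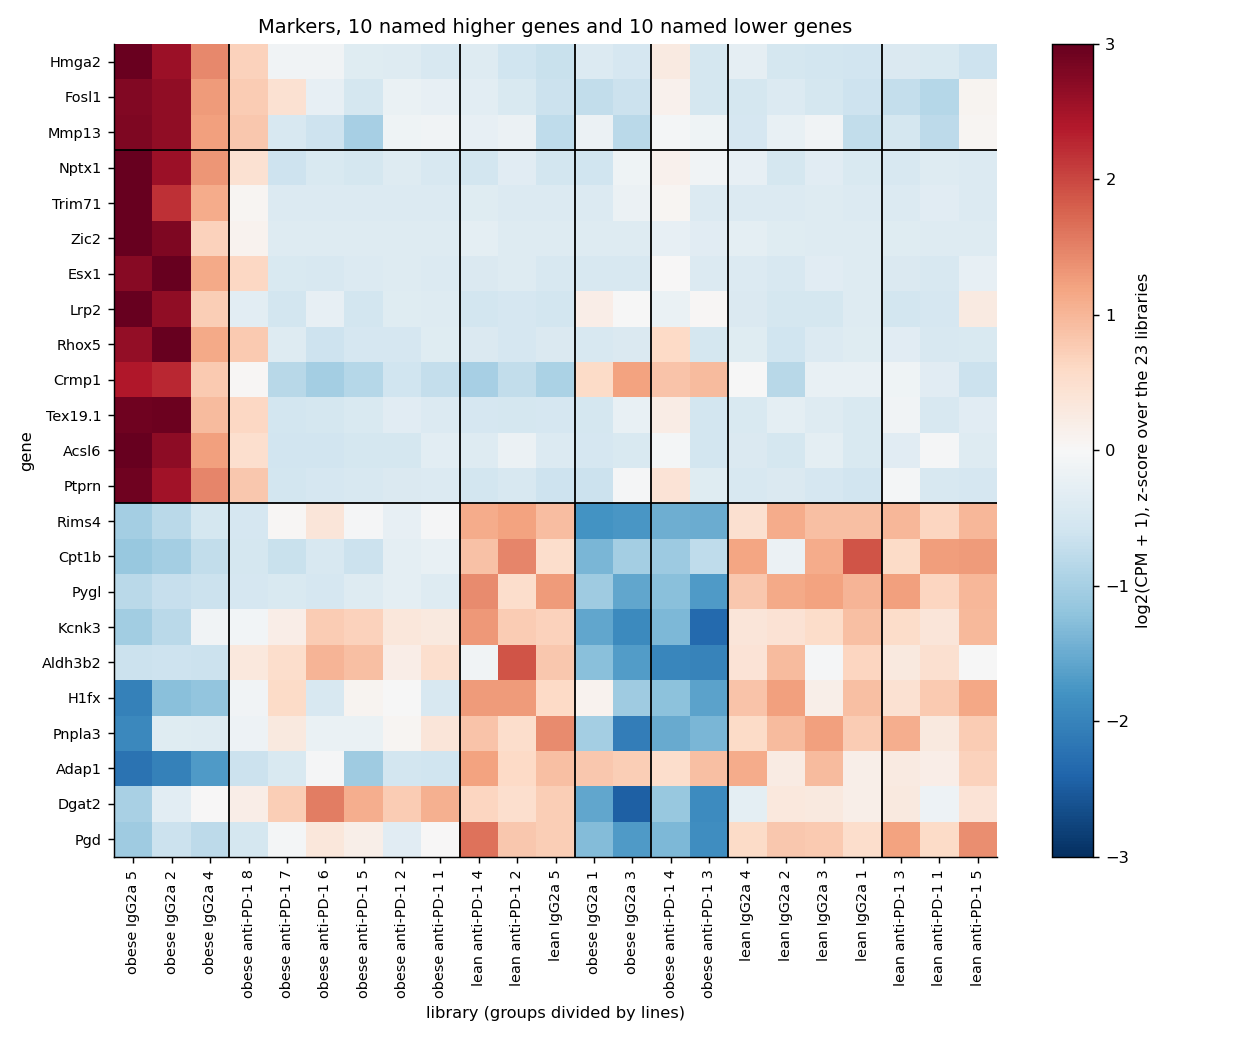
Level of the 3 markers, the 10 higher and the 10 lower genes of largest fold change without obese IgG2a 5, predicted genes left aside, in all 23 libraries, as log2(CPM + 1) scaled to a z-score per gene, with lines between the sets of libraries. The higher genes are darkest in obese IgG2a 5 and 2, paler in obese IgG2a 4 and faint in obese anti-PD-1 8, while the lower genes differ between lean and obese libraries too.

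Levels of the higher genes followed a common order. In 79.8% of the 704 genes the order was obese IgG2a 5, then 2, then 4, which held for 24.3% of all genes tested. For 156 genes whose mean in the other 9 libraries was at most 5% of that in the Hmga2-high libraries, the ratio to obese IgG2a 5 had a median of 0.606 (quartiles 0.422 and 0.799) in obese IgG2a 2 and 0.113 (0.0893 and 0.163) in obese IgG2a 4. Hmga2 itself had ratios of 0.556 and 0.109. Obese anti-PD-1 8 had a median ratio of 0.0391 (0.0245 and 0.0619) over these genes and 0.0350 for Hmga2, and it was the highest of the other 9 libraries in 63.5% of them, against 22.7% of all genes. The genes were chosen by the same contrast, so these shares describe the libraries and have no test. Some were high mainly in obese IgG2a 5, such as F2, with a ratio of 0.00590 in obese IgG2a 2. The ratio of obese IgG2a 4 to obese IgG2a 2 had a median of 0.178 (0.146 and 0.281). Summed CPM of the 156 genes was 3296, 548 and 5919 in obese IgG2a 2, 4 and 5. In the libraries with Glycam1 it ran from 122 (lean IgG2a 2) to 971 (obese anti-PD-1 3).

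**Figure D4:**
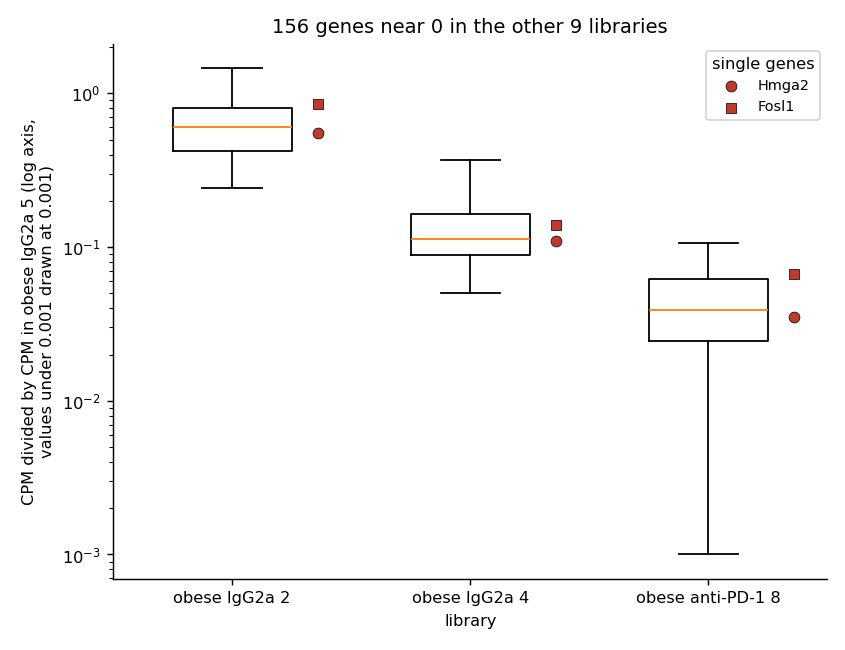
Ratio of CPM to that of obese IgG2a 5, on a log axis, over the 156 genes near 0 in the other 9 libraries, with boxes for quartiles, lines for medians and whiskers at the 5th and 95th percentiles, and Hmga2 and Fosl1 as red points. The boxes step down from obese IgG2a 2 to obese IgG2a 4 and obese anti-PD-1 8, and the points for Hmga2 lie near the medians.

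Against all 20 other libraries, including those with Glycam1, 258 genes (1.35%) were higher in every Hmga2-high library and 5 (0.0262%) were lower. Hmga2, Fosl1, Mmp13, Trim71, Igf2bp2, Spp1, Plau, Plat, Ptgs2, Nos2, Snai1, Csf1, Slc2a1, Slc16a3 and Adm were among the 258. Of those 15 higher genes of largest fold change 14 were included and Crmp1 was not, because obese IgG2a 3 held 18.5 CPM of it. No gene of the cell cycle list was included. The next highest library was obese anti-PD-1 8 in 83 of the 258 genes (32.2%).

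Of the gene lists examined, genes of cell division had the largest share of separated members. Of 22 cell cycle genes, all of which passed the filter, 15 were higher and none lower (3.69% and 0.236% of all genes), with a median log2 fold change of 3.45 (3.24 without obese IgG2a 5) against -0.03 over all genes. Top2a, the topoisomerase that untangles chromosomes, was at 211, 25.8 and 405 CPM in obese IgG2a 2, 4 and 5 against 2.11 to 9.25 CPM. Bub1, a spindle checkpoint kinase, was at 33.1, 5.63 and 58.1 CPM against 0.144 to 3.02 CPM. Cenpf, a kinetochore protein, was at 53.1, 8.80 and 138 CPM against 0.0963 to 5.42 CPM. Mki67, the common marker of dividing cells, overlapped between the sets, with 48.8, 13.5 and 97.3 CPM against 1.81 to 22.1 CPM. The same 15 were higher without obese IgG2a 5 and against the obese anti-PD-1 libraries, where only the factor of 2 could fail. In the libraries with Glycam1 these genes were also abundant, with Top2a between 11.3 and 97.4 CPM.

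Relatives of the markers were separated in part. Of 12 AP-1 and Hmga genes 3 were higher, namely Fosl1, Hmga1 and Hmga2, the last of which had to be, since it chose the libraries. Over all genes tested the share higher was 3.69%. Hmga1, the second AT-hook protein gene, was at 539, 106 and 606 CPM against 21.9 to 65.2 CPM, a log2 fold change of 3.35 (SE 0.383). Jun and Junb overlapped between the sets, and Fos had a log2 fold change of -0.11. Of 9 let-7 and oncofetal genes that passed, Trim71 and Igf2bp2 were higher. Igf2bp2, which binds and stabilizes messenger RNA, was at 53, 20.01 and 103 CPM against 3.35 to 13 CPM. H19, an imprinted RNA of the same list, was lower in fitted level with a log2 fold change of -2.56, but its values overlapped.

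Proteases and matrix genes showed a mixed picture, again beside 3.69% of all genes higher. Of 12 collagenases and stromelysins Mmp13 was the only one separated. Mmp10 was at 4.48, 0.160 and 17.4 CPM, and overlapped the other libraries through obese IgG2a 4. Of 10 genes of the plasminogen system, which activates plasmin at the cell surface, 3 were higher. The receptor Plaur was at 104, 18.9 and 61.5 CPM against 2.29 to 17.0 CPM, and the urokinase gene Plau at 105, 46.7 and 113 CPM against 19.4 to 43.0 CPM. Plau was not separated from the obese anti-PD-1 libraries without obese IgG2a 5. Plat, the tissue activator, had a log2 fold change of 1.02. Of 16 genes of invasion and wound matrix only Spp1 was higher. Spp1 encodes osteopontin, a secreted protein of bone, macrophages and tumors, and was at 193, 33.6 and 358 CPM against 1.76 to 27.4 CPM. Of 10 mesenchymal transition factors only Snai1 was higher, at 16.2, 10.4 and 18 CPM against 0.658 to 6.06 CPM.

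Metabolic genes of growing and oxygen-poor cells were partly separated. Of 15 hypoxia and glycolysis genes 4 were higher, beside 3.69% of all genes tested. Slc16a3, which exports lactate, was at 218, 33.2 and 275 CPM against 0.530 to 18.7 CPM, and Slc2a1, the glucose transporter GLUT1, at 127, 57.6 and 162 CPM against 13.7 to 37.2 CPM. Adm, which encodes a vessel-dilating peptide, was at 37.6, 41.0 and 22.9 CPM against 0.562 to 22.4 CPM, and was highest in obese IgG2a 4, unlike Hmga2. Ankrd37 was the fourth. Of 12 genes of Myc and ribosome biogenesis 3 were higher. Myc was at 178, 42.4 and 230 CPM against 5.02 to 31.2 CPM, and Odc1, the rate-limiting enzyme of polyamine synthesis, at 904, 208 and 1378 CPM against 72.1 to 133 CPM. Nolc1 was the remaining one and was not separated without obese IgG2a 5. Of 12 amino acid stress genes only Slc7a11, a cystine transporter, was higher, and of 12 p53 targets none.

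Markers of epithelium were not separated. None of 16 luminal genes was higher or lower (median log2 fold change -0.98), nor was any of 10 basal and myoepithelial genes (-1.65). Over all genes 3.69% were higher and 0.236% lower, so having none in lists of this size is near the background. Summed luminal CPM lay between 859 and 1498 in the Hmga2-high libraries and between 429 and 5023 in the other 9. Krt8 was at 146 to 266 CPM against 48.2 to 964 CPM. Summed basal and myoepithelial CPM was 393, 632 and 315 in obese IgG2a 2, 4 and 5 against 585 to 1082 in the other 9, so that obese IgG2a 2 and 5 lay below the range of the others. The label that gave this set its name refers to tumor, and of its markers Hmga2, Fosl1 and Mmp13 were high while the luminal keratin Krt8 was within the range of the other libraries. No sequence of the luciferase reporter was used here, so the libraries are called by the rule.

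Few immune markers were separated one by one, beside 3.69% of all genes higher and 0.236% lower. None of 14 macrophage, 12 neutrophil or 17 T and NK cell genes was, with median log2 fold changes of 0.42, 1.45 and 0.34. Summed macrophage CPM was 547 to 892 in the Hmga2-high libraries and 334 to 602 in the other 9, while the mean log2(CPM + 1) of the list did not overlap, at 4.76 to 5.31 against 4.15 to 4.74. The same mean for the B cell list did not overlap either, at 1.497 to 1.633 against 0.712 to 1.43. Summed B cell CPM did overlap, at 90.9 to 163 against 39.9 to 1127. Such means also did not overlap for lists of other kinds, such as cell cycle (3.33 to 5.77 against 1.69 to 2.79). Summed neutrophil CPM was 154 to 184 against 44.8 to 259. The part of these cells in the other results was not tested. Of 10 B cell genes Pax5 and Cr2 were higher, but Ighm, the IgM heavy chain, was at 136, 151 and 62.3 CPM against 38.4 to 1123 CPM. Of 10 myeloid suppressor genes Ptgs2, which makes prostaglandins, was higher at 4.52, 2.95 and 18.8 CPM against 0 to 1.64 CPM, as was Nos2. Of 16 interferon-induced genes Ifit2 and Mx2 were higher (3.69% of all genes were), and 5 of 16 were higher against the obese anti-PD-1 libraries (4.2% of all genes), Ifit2 among them only with obese IgG2a 5 included. Csf1, the macrophage growth factor, was at 107, 68.7 and 105 CPM against 10.9 to 59.8 CPM and was the only separated one of 13 chemokines and growth factors; it was not separated from the obese anti-PD-1 libraries.

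RNA of other tissues differed between libraries. Alb, the liver gene for albumin, was at 6931 CPM in obese IgG2a 5 and between 6.56 and 194 CPM in the other 22. None of 11 liver genes that passed was separated, but their median log2 fold change was 5.14 with obese IgG2a 5 and -0.43 without it. Ahsg, a plasma protein of liver, was at 4.01, 0 and 682 CPM. Some separated higher genes outside that list were also high mainly in obese IgG2a 5. Serpind1 was at 1.01, 0.439 and 32.6 CPM in obese IgG2a 2, 4 and 5. Skeletal muscle genes were low in the Hmga2-high libraries, with a summed level of 17.3 to 34.2 CPM, against 3391 CPM in lean anti-PD-1 2. Skin genes summed to 9.43 to 12.6 CPM in the Hmga2-high libraries and to 8.22 to 23.3 CPM in the obese ones of the other 9. They reached 201 CPM in lean anti-PD-1 4 and 301 CPM in lean IgG2a 5. Their part in the results was not tested. Of the 704 higher genes 572 were separated without obese IgG2a 5, but leaving out a library cannot make the sets overlap. Only the factor of 2 or the filter on low counts could fail, so this count does not measure the part of liver RNA.

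The 10 lower genes of largest fold change without obese IgG2a 5 have different roles. Dgat2, which completes triglyceride synthesis, was at 867, 1142 and 505 CPM in obese IgG2a 2, 4 and 5 against 1334 to 4052 CPM (median 2086 CPM) elsewhere, a log2 fold change of -1.68 (SE 0.404), and -1.74 against the obese anti-PD-1 libraries. Pnpla3, a lipid droplet protein, was at 131, 128 and 24.7 CPM against 154 to 820 CPM, with -1.98, and -1.20 against the obese anti-PD-1 libraries. With diet the same, Dgat2 was separated with and without obese IgG2a 5, whereas Pnpla3 was not separated without it, at -0.74. Pygl, which breaks down glycogen, was at 104, 108 and 92.3 CPM against 123 to 806 CPM, Pgd, of the pentose phosphate pathway, at 307, 282 and 238 CPM against 333 to 1269 CPM, and Cpt1b, which brings fatty acids into mitochondria, at 4.90, 6.76 and 4.19 CPM against 7.24 to 65.1 CPM. With diet the same, none of these 3 passed the factor of 2, with log2 fold changes of -0.54, -0.84 and -0.91, and the 3 lean libraries were the highest of the other 9. Rims4, a synaptic vesicle protein, Kcnk3, a potassium channel, Aldh3b2, an aldehyde dehydrogenase, H1fx, a linker histone, and Adap1, a regulator of small GTPases, were lower in both comparisons. Adap1 was at 13.1, 15.2 and 12 CPM against 20.1 to 54.0 CPM, and was also below all 20 other libraries. Against the obese anti-PD-1 libraries without obese IgG2a 5 its log2 fold change was -0.96, short of the factor of 2.

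Wider lists of fat cell genes had 1 or 2 lower members each, a share above the 0.236% of all genes tested but resting on few genes. Of 16 adipocyte genes only Dgat2 was lower, with a list median of -0.82. Summed adipocyte CPM was 35772 in obese IgG2a 2, 47464 in obese IgG2a 4 and 16545 in obese IgG2a 5, against 39565 to 59975 in the other 9. Of 12 genes of lipogenesis Pnpla3 and Srebf1 were lower, with a median of -2.92 that was -0.55 against the obese anti-PD-1 libraries. Of 10 thermogenic genes Cpt1b was lower, with medians of -2.50 and -0.48 in those comparisons.

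**Figure D5:**
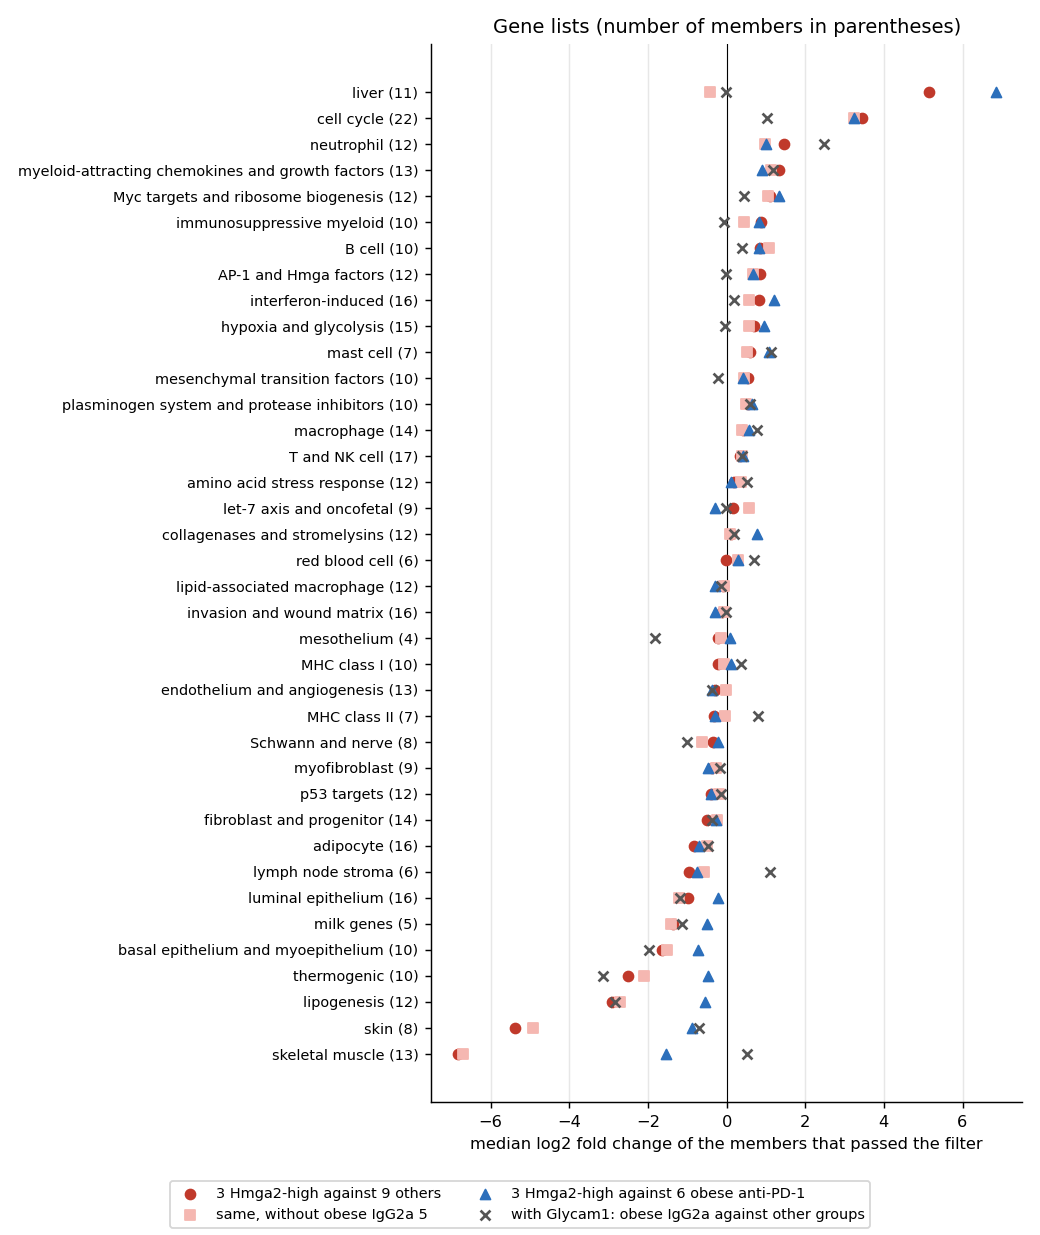
Median log2 fold change of each gene list, with the number of members that passed the filter. Circles compare the 3 Hmga2-high with the other 9 libraries, squares leave out obese IgG2a 5, triangles use only the 6 obese anti-PD-1 libraries, and crosses compare obese IgG2a with the other groups among the 11 libraries with Glycam1. The cell cycle list stays above 3 in the circles, squares and triangles, and the liver list drops to -0.43 without obese IgG2a 5.

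Libraries with Glycam1 were not used to choose the Hmga2-high ones, and the same groups could be tested in them. The p-values measure the spread between libraries, 1 per mouse. The labels give no cage or batch, so effects of these, or of how each pad was cut, could not be told apart from it. Glycam1 was highest in obese IgG2a 1 and 3, at 1326 and 1917 CPM, against 117 to 890 CPM in the rest of these libraries. The amount of lymph node therefore cannot be told apart from the group in these tests. With 2 obese IgG2a and 2 obese anti-PD-1 libraries, edgeR's quasi-likelihood test called 0 of 20704 genes in either direction (0%), while 1378 had an unadjusted p under 0.05, DESeq2 called 73, limma on log2(TPM + 1) values 2 and edgeR with no filter 6. Leaving out obese IgG2a 3 gave 6 calls and leaving out lean IgG2a 3 gave 1. Hmga2 was not called between obese IgG2a and obese anti-PD-1, with a log2 difference of -1.84 (SE 1.22, adjusted p = 0.696, edgeR quasi-likelihood test). Fosl1 differed by -1.89 (adjusted p = 0.690, edgeR) and Mmp13 by -0.80 (adjusted p = 0.879, edgeR). With obese anti-PD-1 4 left out, the difference for Hmga2 was 0.69.

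The same test of obese IgG2a against the mean of the other groups with Glycam1 called 167 genes higher (0.807%) and 283 lower (1.37%). Counts depended on single libraries, from 33 without obese IgG2a 1 and 59 without obese IgG2a 3 to 939 without lean anti-PD-1 1 and 1225 without lean IgG2a 4, with 138 and 222 without lean anti-PD-1 3 and 5 and 242 without lean IgG2a 3. Hmga2 (-0.60, adjusted p = 0.773), Fosl1 (-1.43, adjusted p = 0.415) and Mmp13 (-0.55, adjusted p = 0.768) were not called by edgeR. Called genes of the largest change included Cd163l1, a scavenger receptor of gamma delta T cells, with a mean of 187 CPM against 14.6 CPM and a log2 difference of 4.77 (adjusted p = 0.00282, edgeR). Ccl20, a chemokine for cells that carry CCR6, was at 11.6 and 4.15 CPM in obese IgG2a 1 and 3, at 5.62 and 1.29 CPM in obese anti-PD-1 3 and 4, and at 0 in every lean library with Glycam1. It was called by edgeR (adjusted p = 0.0105) but not without obese IgG2a 1, and its fitted fold depends on the groups at 0 and is not given. Retnlg, a neutrophil gene, Saa3, an acute phase gene, and Tcrg-V6, a gamma chain segment, were also higher. On the other side Tmem79, which acts in skin, was lower by 5.25 on the log2 scale and Aspg by 6.93, with Hephl1, Lrtm1 and Ttc25.

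Genes that were separated by Hmga2 could be followed in these unused libraries. Of the 704 higher genes 656 were tested, and 6 (0.915%) were called higher against the mean of the other groups, near the 0.807% of all genes. They were Cd163l1, Cpe, Il1rn, Pla2g7, Tuba1c and Ube2c, and Dagla was called lower. Of the 45 lower genes 10 (22.2%) were called lower, against 1.37% of all genes. Dgat2 (-1.91, adjusted p = 0.0389, edgeR), Pnpla3 (-2.28, adjusted p = 0.0350, edgeR) and Rims4 (-4.01, adjusted p = 0.00196, edgeR) were among them, with Kcnk3, Pgd, Pygl, Hadha, Tecr, Cables1 and Ccdc144b. This contrast includes lean mice, so diet and antibody cannot be told apart in it, nor can the amount of lymph node. Between the obese groups, where edgeR called no gene at all, the log2 differences were -0.43 (SE 0.457) for Dgat2, 0.19 (SE 0.510) for Pnpla3 and -0.84 (SE 0.403) for Rims4.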

How the data were processed

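RNA of tumor-adjacent mammary fat pad was measured in 23 libraries, 1 per mouse, from poly(A) RNA with a non-directional kit and an RNA integrity number above 5.0, per the labels' protocols. The deposited files hold the authors' estimated counts (expected counts) and TPM per transcript, in the layout of a salmon quantification. The quantifier and its settings are not given in the sources used here. The submitters' processing notes name GRCm38, edgeR and limma. Estimated counts were summed per gene with GENCODE M21 (114200 of 115088 transcripts matched, 47311 genes), scaled to CPM and rounded for tests. Unmatched transcripts held at most 0.208% of the counts, and totals ran from 49438121 to 77369057 per library, with 14801 to 18400 genes at 10 or more counts. Deposited TPM values were used for transcript shares and as an alternative on a log2(TPM + 1) scale.

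Fold changes come from edgeR 4.0.16 (TMM scaling, filterByExpr, robust quasi-likelihood fit, R 4.3.3) with Benjamini-Hochberg adjustment over all genes. A called gene has an adjusted p under 0.05, and DESeq2 1.42.0 and limma 3.58.1 (on log2(TPM + 1) values) served as alternatives. Between Hmga2-high and other libraries no test was made, and a gene counts as separated when the sets do not overlap in CPM and the log2 fold change is at least 1. Tests use the 11 libraries with Glycam1, fitted with 4 group means. The rule was tested on simulated data, with a spread between libraries set lower than that fitted here. It recovered most genes made to differ, more of them at a larger fold, and also called some unchanged genes. The unchanged genes called were a larger share in both directions together than the lower genes make up here.

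Members, gene lists and tests were chosen with earlier results of these data known. Named genes are the 3 markers, the 15 higher and 10 lower separated genes of largest fold change without the library with Alb above 1000 CPM (mean of at least 4 CPM in the higher libraries, separated with and without it, predicted genes with Gm or Rik names counted but not named), the 3 members of largest change in a list, and in the tests the 5 called genes of largest change in each direction. Of the 15 higher genes, 1 is not reported here. Some other genes were named after their values were seen.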

Additional observations from a re-analysis of the deposited data

Results flagged for a closer look

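Values were flagged by Dixon's rule, which compares the gap to the next value with the range of the set. Its chance rate of about 1 in 20 holds for normally distributed values. CPM values are skewed and the other 9 libraries mix diets, so single flags carry little weight. Obese anti-PD-1 8 stood apart in Hmga2, at 6.49 CPM against at most 3.11 CPM in the rest of its group and 1.43 CPM in the rest of the other 9 libraries. Its Mmp13, at 4.56 CPM, also stood apart in both sets. Its neutrophil list, the mean log2(CPM + 1) of the members, was 2.73, and the next highest of the other 9 was 1.72. Obese IgG2a 5 stood apart in Alb, at 6931 CPM against at most 72.8 CPM in its group, and in the liver list, at 8.95 against 2.91. Among the other 9 libraries, lean IgG2a 5 was highest in Alb at 194 CPM. The skeletal muscle list was 4.77 in obese IgG2a 3, 1.14 in obese anti-PD-1 7 and 7.49 in lean anti-PD-1 2, each the highest of its set.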

How the results depend on the processing

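Counts of separated genes moved with the scale and with the choice of libraries. On the log2(TPM + 1) scale 14 genes were lower than in the other 9 libraries and 65 lower than in the obese anti-PD-1 libraries. With the Hmga2 limit at 5 CPM, which adds obese anti-PD-1 8 to the Hmga2-high libraries, 406 were higher. As alternatives chosen after seeing the data, a comparison with the 3 lean libraries gave 2708 higher and 1306 lower, and obese IgG2a 4 alone gave 1070 higher and 170 lower. Leaving out each library in turn gave 628 (without obese IgG2a 5; otherwise at least 706) to 2081 higher and 44 to 271 lower. Against the obese anti-PD-1 libraries it gave 744 (without obese IgG2a 5; otherwise at least 792) to 2237 higher and 133 to 960 lower. The lower count there was 193 without obese IgG2a 2, 290 without obese anti-PD-1 8 and 960 without obese IgG2a 4, and 2237 were higher without obese IgG2a 4. Fewer libraries meet the rule more easily by construction.

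In the libraries with Glycam1, DESeq2 called 73 genes between the obese groups, edgeR without a filter 6 and limma on log2(TPM + 1) values 2, and leaving out a library gave 0 to 6. Against the mean of the other groups DESeq2 called 2225 and edgeR without a filter 830, and leaving out a library gave 33 to 1225. The cause was not tested. Directions turned in 3 cases, Hmga2 at 0.69 and 0.25 without obese anti-PD-1 4 in those comparisons, and Mmp13 at 0.19 without obese IgG2a 3 against the other groups. Over all libraries left out, Hmga2 ran from -2.71 to 0.69 between the obese groups and from -0.95 to 0.25 against the other groups, and Mmp13 from -2.06 to 0.19 there. None of these values was called. No paired analysis was possible because the labels carry no replicate numbers.

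Levels near 0 CPM rest on few counts, which limits the precision of a fold change there. The design holds no obese IgG2a library with Glycam1 under 10 CPM and low Hmga2, and no lean IgG2a library with high Hmga2.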
